A study of Homo sapiens with 7 samples.

Results

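First introns are the introns that the deposited splice table numbers 1, counted from the 5′ end of the transcript named in each row. Rows with a splice index in all 3 WT and all 3 CFAP20-KO libraries were kept, which gave 1641 first introns of 1572 genes among 6537 such introns of any position, and left 4896 later introns for comparison. The number 1 matched the annotation: 1575 of the 1641 were the first intron of the listed transcript in GENCODE 44 and 1615 were first in some transcript of their gene. The libraries were made by BrU-seq, in which cells take up bromouridine during a short pulse and the RNA made in that time is pulled down for sequencing. All groups were made from RPE1, a human line of retinal pigment epithelial origin immortalised with telomerase, in the background labelled iCas9 p53/puro-dKO, so a Cas9 transgene and a double knockout of p53 and puro are shared by WT and CFAP20-KO alike. The WT group (3 libraries) had no further change, the CFAP20-KO group (3 libraries) lacked CFAP20, and the rescue (1 library) was the CFAP20-KO line with CFAP20-GFP added back. Bromouridine was given at 2 mM for 30 min and the cells were harvested at once. The sources used here do not say whether each line is 1 clone or whether replicates came from separate cultures, so the p-values measure the spread between these libraries only. CFAP20 itself was not analysed here. No first intron belonged to the fixed list of retinal pigment epithelium markers or to that of markers of other cell types, so the table holds no check of the cell type at first introns.

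Introns are removed by the spliceosome, which recognises a donor site at the 5′ end of the intron, a branch point and an acceptor site at the 3′ end. Much of this removal happens while RNA polymerase II is still on the gene, so RNA labelled in a short pulse holds a mixture of spliced and unspliced molecules. The first intron lies next to the promoter, is often the longest of a gene, and its donor follows the first exon, which is recognised with help from the cap at the 5′ end of the RNA. CFAP20 is known as a protein of ciliary axonemes, and the series concerns functions of it in the nucleus.

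The splice index is a fraction from 0 to 1 for each intron and library. The sources used here give neither its formula, nor the number of reads behind each value, nor whether reads were assigned by strand, so no counting interval can be attached to a value, and values are called higher or lower rather than more or less spliced. First introns were 39 to 88097 bp long with a median of 950 bp, against 633 bp for later introns. They began with GT and ended with AG in 1590 cases (96.9%, against 99.1% of later introns), and had GC-AG ends in 44 (2.68%, against 0.776%). Of these 44, 43 did not belong to a MANE Select transcript, the one transcript per coding gene that Ensembl and RefSeq agreed on as its representative. The exception was VPS72, which encodes a histone-chaperone subunit of chromatin remodellers. An AT-AC intron was not among the first introns, and the 8 letters GTATCCTT or ATATCCTT at the donor, typical of the rare introns handled by the minor spliceosome, stood at 1 first intron, that of CCNT2, and at 10 later introns.

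The following donor sites show these kinds side by side. The sequences run 5′ to 3′ along the transcribed strand and were read from hg38, and each gives 10 exon bases in lower case, the first 6 intron bases in capitals and 14 more intron bases. The first 5 are the first introns with the highest mean index, the next 4 were at or near 0 in all 6 libraries, and the last 5 are the CCNT2 donor, the GC donors of VPS72 and PRDX1, whose index was high all the same, and the first introns of RRP9 and ILKAP described later.
EDF1: atccaagcagGTGCTTtgctgactgaggag
POLR1C: ggttcgcaatGTAAGCcttgtggccttgag
FBL: atgaagccagGTCAGGctggggtgagggtc
TUBB4B: cggcgccaagGTAAGTtgccggggcgctgg
ZNF574: gcggaagcagGTGAGCgcgagcgggcgcgc
ADIRF: caggaagccgGTGAGGatagcgcgcgacct
BAG3: ttcgatgaagGTATCTttgggaccttggca
EIF3F: acttagccagGCATGAtgacacacacctat
NTMT1: gtggaaaatgGCTATAgctgcacaaagccc
CCNT2: gtctcaatgtGTATCCttttctgttcgccg
VPS72: tttcacagagGCAAGAtccgggcctgggaa
PRDX1: gaaccccaagGCAAGCgtggactcgagtcg
RRP9: gcggcgaaagGTGAGCatggcgcttctgag
ILKAP: ccggctgccgGTAAGCggcgttgccgccgg

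In hg38 these introns lie as follows. The 5 highest are EDF1 at chr9:136863872-136866180 on the minus strand, POLR1C at chr6:43517179-43517305 on the plus strand, FBL at chr19:39840788-39846290 on the minus strand, TUBB4B at chr9:137241418-137241720 on the plus strand and ZNF574 at chr19:42076287-42078586 on the plus strand. The ZNF574 intron lies in the 5′ UTR and the other 4 follow the start codon. The 4 near 0 are ADIRF at chr10:86968606-86970199, BAG3 at chr10:119656677-119657459, EIF3F at chr11:7992431-7992498 and NTMT1 at chr9:129628563-129628606, all on the plus strand. Of the remaining ones, CCNT2 is at chr2:134919013-134919809 on the plus strand, VPS72 at chr1:151185951-151190004, PRDX1 at chr1:45519055-45521608, RRP9 at chr3:51941492-51941780 and ILKAP at chr2:238194871-238203498, the last 4 on the minus strand. The donors of EIF3F and NTMT1 are listed under transcripts with no annotated start codon and are only 68 and 44 bp from their acceptors. The EIF3F interval was not found as an intron of its listed transcript in GENCODE 44, and it overlaps an annotated exon of the gene.

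A donor score was computed from the 3 exon and 6 intron bases around the site as a sum of log2 odds, with higher values for donors closer to the usual letters. Its median was 8.05 in first introns and 8.5 in later ones. Within first introns it was 8.51 in MANE Select transcripts and 7.41 outside them. The usual letters do not by themselves fix the index: TUBB4B, with 12.46, and EDF1, with 5.66, are both among the 5 highest, and ADIRF, with 8.80, was at 0 in every library. With first introns divided into 3 equal groups by this score, the median index in WT went from 0.254 in the lowest group to 0.362 and 0.398 in the middle and highest (mean of 3 library medians), and this order was the same in each of the 6 libraries. Among first introns of MANE Select transcripts the steps were smaller, with 0.489, 0.536 and 0.548. There the middle group lay above the highest in WT replicate 2 and in CFAP20-KO replicate 2.

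The index of first introns was low. The median over the 1641 was 0.248, 0.467 and 0.316 in WT replicates 1, 2 and 3, and 0.207, 0.382 and 0.380 in CFAP20-KO replicates 1, 2 and 3. For later introns the medians were 0.643, 0.752 and 0.733 in WT and 0.619, 0.776 and 0.755 in CFAP20-KO. Each library's first-intron median lay below its later-intron median, by 0.285 to 0.417 over the 6 libraries, and no library's first-intron median reached the lowest later-intron median. At the ends of the scale, 29 first introns (1.77%) were at 0.8 or above in all 6 libraries, against 14.6% of later introns, and 352 (21.5%) were below 0.2 in all 6, against 5.74%. In WT the median was higher with each intron number, from 0.344 ± 0.112 (SD, n = 3) for number 1 to 0.579 ± 0.0857 for number 2, 0.629 ± 0.0620 for number 3 and 0.779 ± 0.0419 for number 6 or more.

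First introns came less often from the representative transcript of their gene. Of the first introns 44.1% (724) were part of a MANE Select transcript, against 87.4% of later introns. Of these 724, 681 were also the first intron of the MANE Select transcript, with a WT mean of 0.527 ± 0.107, and the rest lay further along it. The later introns in MANE Select transcripts included 14 that are first there. Both classes are named here by the number in the splice table. First introns of MANE Select transcripts had medians of 0.424, 0.640 and 0.523 in WT and 0.386, 0.616 and 0.608 in CFAP20-KO, and the other 917 had 0.127, 0.286 and 0.170 in WT and 0.0946, 0.188 and 0.203 in CFAP20-KO. Within MANE Select transcripts, first introns still lay below later ones in every library, by 0.139 to 0.281, a smaller gap than over all introns. Among the MANE Select introns, those numbered 2 had a WT mean of 0.673 ± 0.0712 and those numbered 3 had 0.680 ± 0.0519, a difference smaller than the spread between libraries, while number 1 stood at 0.529 ± 0.108.

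The first introns outside MANE Select transcripts fell into classes that differed widely. The 368 that shared only their acceptor with the MANE Select transcript, as an alternative first exon does, had WT medians of 0.261, 0.479 and 0.325. The 239 that shared only their donor had 0.141, 0.330 and 0.209. The 86 that shared neither site had medians of 0.0103 or less in every WT and CFAP20-KO library, and the 224 in genes with no MANE Select transcript had 0.0114 or less. Of the 187 first introns of long non-coding RNAs, 119 lay opposite a coding gene, where the median was 0 in each of the 6 libraries, and 68 did not, with WT medians of 0.0172, 0.0344 and 0.02. Without knowledge of strand in the counting, reads of these RNAs and of the opposite gene cannot be told apart. For comparison, the 69 first introns of MANE Select transcripts that lie opposite another coding gene had WT medians of 0.379, 0.588 and 0.483, close to the medians of all MANE Select first introns.

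**Figure D1:**
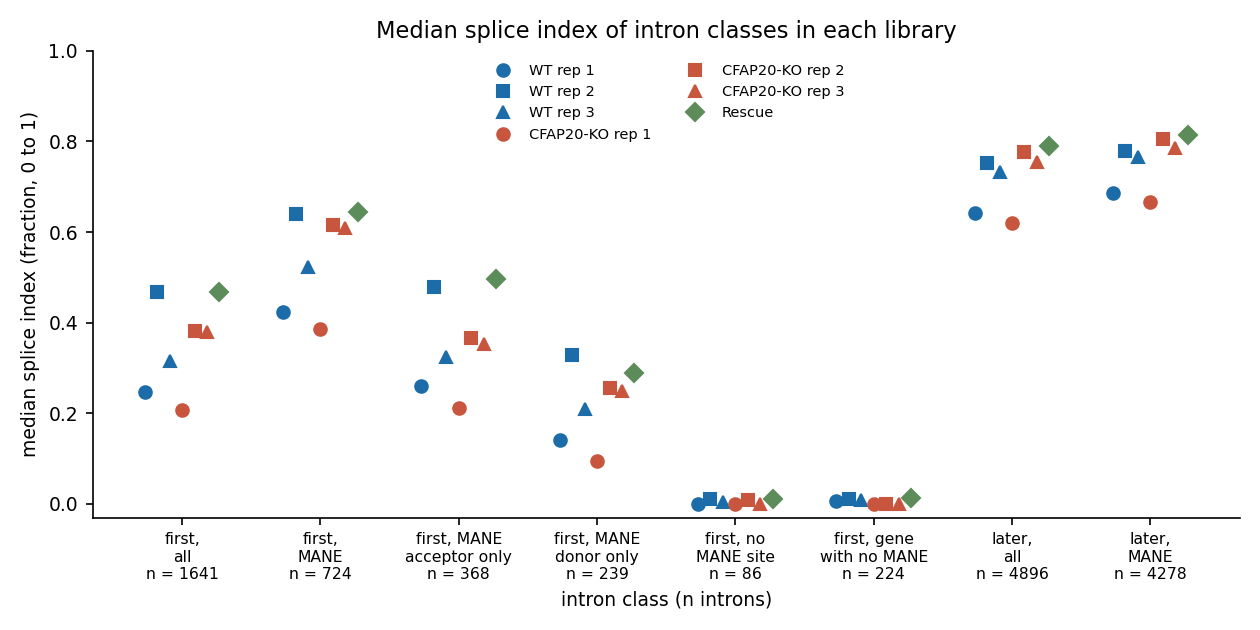
Median splice index (vertical axis, fraction) of classes of introns in each of the 7 libraries: WT blue, CFAP20-KO red, rescue green, and the shape gives the replicate. First introns of MANE Select transcripts lie above other first introns and below later introns, and first introns with no MANE Select site stay near 0 in every library.

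Exact zeros gathered in the same classes. An index of 0 was listed for 11.2%, 8.53% and 9.32% of first introns in WT and for 15.3%, 10.1% and 10.5% in CFAP20-KO. In all 6 libraries 99 first introns were listed at 0, and 94 of them lay outside MANE Select transcripts. The 5 inside were those of ADIRF, C10orf95, HSD17B1, OVOL3 and TMC4, of which HSD17B1 encodes an enzyme that makes estradiol. Those of OVOL3 and TMC4 are introns 2 and 14 of the MANE Select transcript and first only in the listed one. BAG3, a co-chaperone of HSP70, was also at 0 throughout, for a first intron outside its MANE Select transcript. Since the reads behind a 0 are unknown, such a value cannot be read as a measured absence of splicing.

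At the other end were genes with very even values. EDF1, a transcriptional coactivator that also binds stalled ribosomes, had 0.968, 0.995 and 0.983 in WT and 0.982, 0.993 and 0.987 in CFAP20-KO. FBL, the methyltransferase fibrillarin of the nucleolus, had 0.946, 0.973 and 0.940 in WT and 0.943, 0.996 and 0.979 in CFAP20-KO. TUBB4B, a beta-tubulin found in cilia among other places, had 0.947, 0.982 and 0.922 in WT and 0.975, 0.970 and 0.943 in CFAP20-KO. In these 3 genes, and in ZNF574, the WT and CFAP20-KO values overlapped. POLR1C, a subunit shared by RNA polymerases I and III, had 0.934, 0.961 and 0.935 in WT and 0.984, 0.982 and 0.983 in CFAP20-KO, with no overlap, and its difference of 0.0399 did not pass the limma test (adjusted p = 0.853). The longest first intron was that of TRERF1 (88097 bp, WT 0.8, 0.916 and 0.759), and UBTD1, WASF2 and ZMIZ1, also among the longest, had WT means of 0.693, 0.677 and 0.845. These 4 lay above the WT median of first introns. Of the 5 shortest, DUT-AS1 and NTMT1 were at 0, EIF3F and ENSG00000265401 stayed below 0.05, and ENSG00000278356, 55 bp long, had WT values of 0.813, 0.869 and 0.641.

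Longer first introns had a higher index. The 845 under 1 kb had medians of 0.196, 0.4 and 0.242 in WT and 0.174, 0.313 and 0.303 in CFAP20-KO. The 28 of at least 20 kb had 0.555, 0.719 and 0.581 in WT and 0.498, 0.620 and 0.662 in CFAP20-KO. The classes of 1 to 5 kb (602 introns, WT 0.276, 0.487 and 0.359) and 5 to 20 kb (166 introns, WT 0.415, 0.603 and 0.502) lay between these in order, in each WT and CFAP20-KO library. The longest class exceeded the shortest by 0.339 ± 0.0201 in WT and by 0.330 ± 0.0262 in CFAP20-KO (SD, n = 3 each). The values of this contrast in the 2 groups overlapped, and their difference of -0.00900 was smaller than either SD. Over the single introns Spearman's rho of index with length was 0.208, 0.151 and 0.213 in WT and 0.108, 0.168 and 0.175 in CFAP20-KO, so length ordered the first introns only loosely. The difference in rho was -0.0998 between the replicates 1, and -0.0414 between the mean of CFAP20-KO replicates 2 and 3 and WT replicate 3. Among later introns the same differences were -0.112 and -0.0995, so this drop was not particular to first introns. These are correlations across introns that share a library, 1641 of them for first introns, and are given as a description.

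**Figure D2:**
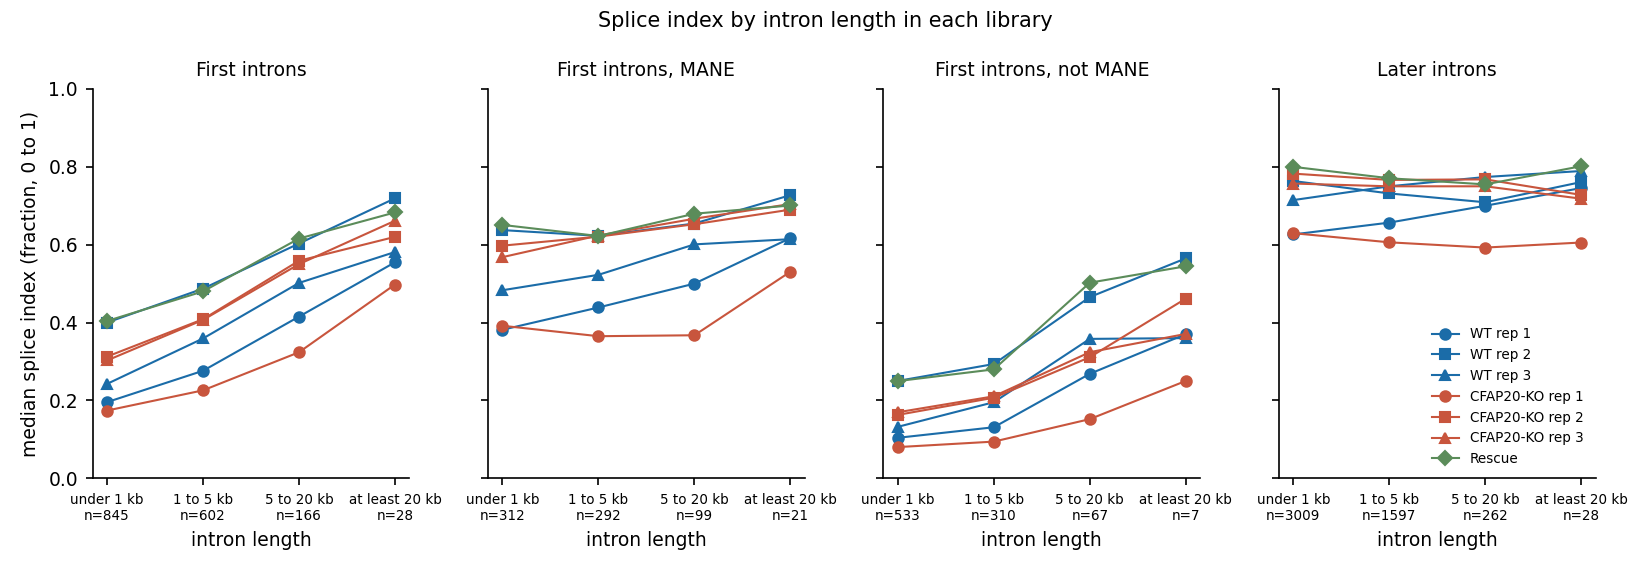
Median splice index (vertical axis, fraction) in 4 classes of intron length (horizontal axis, with the number of introns) for each library. The lines climb for first introns, change less and unevenly for first introns of MANE Select transcripts, where they fall from the shortest to the next class in WT replicate 2, CFAP20-KO replicate 1 and the rescue, and move little or in both directions for later introns.

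The share of introns in MANE Select transcripts rose along the same classes, from 36.9% of first introns under 1 kb to 48.5%, 59.6% and 75% in the longer classes. Within MANE Select transcripts the contrast between the longest and shortest class was 0.236, 0.0898 and 0.131 in WT and 0.139, 0.0926 and 0.137 in CFAP20-KO, with 21 and 312 introns. The rho with length there ran from -0.0441 in CFAP20-KO replicate 1 to 0.131 in WT replicate 3. Outside MANE Select transcripts the longest class, with only 7 introns, had WT medians of 0.370, 0.565 and 0.360, against 0.104, 0.25 and 0.132 under 1 kb. Among later introns the same contrast was 0.119, -0.00280 and 0.0748 in WT and -0.0240, -0.0547 and -0.0389 in CFAP20-KO. These values did not overlap between the groups, and the longest class held 28 later introns. Within MANE Select transcripts the later-intron contrast was 0.128, -0.0246 and 0.0431 in WT and 0.0296, -0.0132 and 0.0269 in CFAP20-KO. There the groups overlapped, as they did over all later introns for at least 5 kb against under 1 kb. In each library the contrast between the longest and shortest class was smaller in later than in first introns. As a result the gap between later and first introns narrowed with length, in WT from 0.422 ± 0.0548 under 1 kb to 0.147 ± 0.0914 at 20 kb and over. Within MANE Select transcripts the gap in WT narrowed less, from 0.235 ± 0.0716 to 0.132 ± 0.0806.

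Over all first introns, the index also differed with position relative to the coding sequence and with the make-up of the transcript. First introns after the start codon (588) had WT medians of 0.392, 0.617 and 0.491, those in the 5′ UTR (509) had 0.256, 0.469 and 0.331, and those of transcripts with no annotated start codon (497) had 0.0806, 0.209 and 0.0909. Within MANE Select transcripts the first 2 of these classes were closer, with WT means of 0.535 ± 0.102 and 0.511 ± 0.122, which differ by less than the spread between libraries. The 24 there with no annotated start codon had a WT mean of 0.539 ± 0.0874. The low medians of that class were therefore not seen within MANE Select transcripts. The 365 first introns that were the only intron of their transcript had a WT mean of 0.152 ± 0.0716, those of transcripts with 2 to 5 introns 0.355 ± 0.124, and those with 6 or more 0.437 ± 0.108. In MANE Select transcripts, first exons over 225 bp went with a WT mean of 0.481 ± 0.0877, against 0.6 ± 0.118 for first exons of at most 120 bp, and this order held in each of the 6 libraries.

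Comparing an intron with the other listed introns of its own gene removes what a whole gene shares. For 832 first introns the gene had at least 1 other listed intron. The others can include an intron also numbered 1, since the 1641 first introns came from 1572 genes, so they are not always later introns. In a limma fit over all 5003 such introns, with Benjamini-Hochberg adjustment at 0.05, 389 first introns (46.8%) were lower than the mean of the others in WT, against 20.2% of all introns tested, and 93 (11.2%) were higher, against 25.5%. The share that was lower dropped along the gene, with 22.8% at number 2, 18.2% at number 3 and 10.4% at number 6 or more. In genes with 2 listed introns the 2 values mirror each other, so these shares are not independent of one another. In the 6 WT and CFAP20-KO libraries taken singly, 428 first introns (51.4%) were below the others in every one and 110 (13.2%) above.

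Fitting introns of MANE Select transcripts alone, 104 of 360 first introns (28.9%) were lower, against 13.5% of all 3902 tested, and 47 (13.1%) were higher, against 17.7%. The median difference of a first intron from the others of its gene was -0.150, -0.0833 and -0.159 in WT and -0.173, -0.119 and -0.123 in CFAP20-KO. For first introns of MANE Select transcripts in the full comparison it was -0.0691, -0.00730 and -0.0715 in WT, and for the rest -0.232, -0.182 and -0.244.

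**Figure D3:**
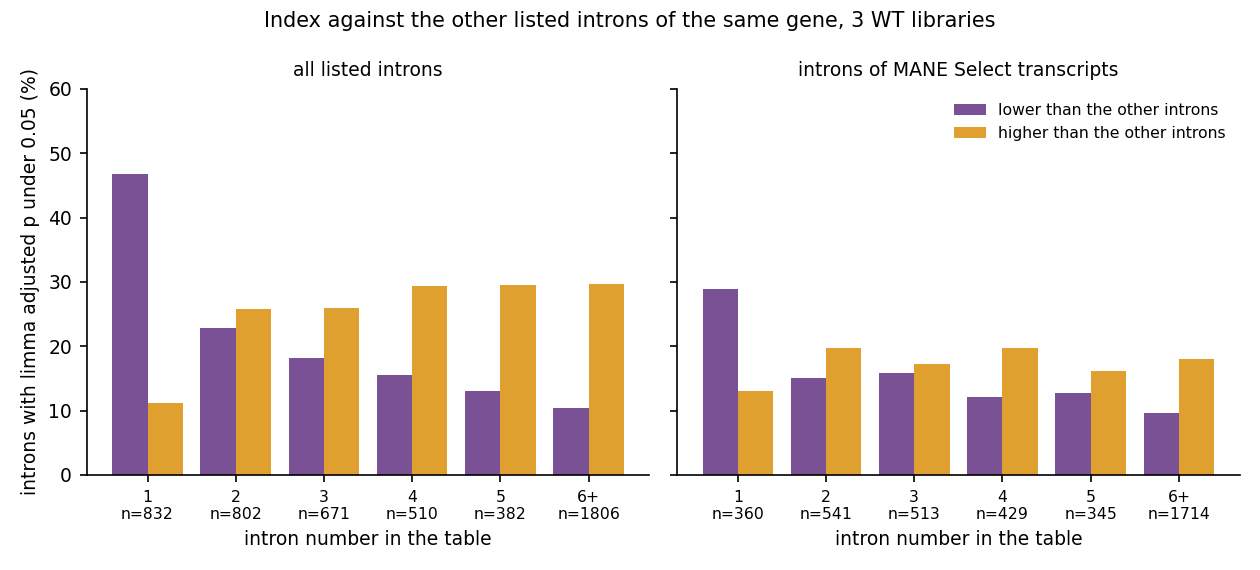
Percent of introns (bars, axis from 0) whose index in WT was lower (purple) or higher (yellow) than that of the other listed introns of the same gene at a limma adjusted p under 0.05, by intron number, for all listed introns and for MANE Select transcripts alone. Number 1 has the tallest purple bar and the lowest yellow bar in both panels.

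The genes with the largest gaps show what these differences look like. NEDD4L, a ubiquitin ligase, had a first intron at 0 in all 6 libraries, a difference of -0.862 from its other introns in WT (SE 0.0331, limma adjusted p = 5.54e-05). PFDN4, a subunit of the prefoldin chaperone, reached 0.0119 in WT replicate 2 and 0 in the other WT libraries, a difference of -0.815. DBN1, the actin-binding protein drebrin, had 0.0676, 0.0652 and 0.0330 in WT, a difference of -0.810. MCMBP and RANGAP1, which act on the replicative helicase and on nuclear transport, differed by -0.790 and -0.789, and in all 5 genes the listed first intron is outside the MANE Select transcript.

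In the other direction the first intron of MID1IP1, a regulator of lipid synthesis, had 0.654, 0.803 and 0.683 in WT, 0.675 above the other listed introns (SE 0.0434, limma adjusted p = 0.000184). NDUFAF8, an assembly factor of respiratory complex I, was 0.620 above, CHTOP, an mRNA export factor, 0.546, PARP6 0.483 and HJURP, the chaperone of the centromeric histone, 0.467. All 5 are introns of MANE Select transcripts, and those of MID1IP1 and PARP6 are the second intron there. For PARP6 the other listed introns include another one numbered 1, outside the MANE Select transcript, with a mean index of 0.0249 over the 6 libraries. TUBB4B was 0.366 above its other introns.

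CFAP20-KO was compared with WT at each intron, to see whether the index of first introns depends on CFAP20. Limma called 0 of 6537 introns at an adjusted p of 0.05 (0% of all introns, and 0 of the 1641 first introns), with a smallest adjusted p of 0.833 among first introns. The unadjusted p was under 0.05 at 49 first introns (2.99%), against 5.71% of all introns. Of these, 20 (1.22%) were higher, against 3.58% of all introns, and 29 (1.77%) were lower, against 2.13%. The 3 CFAP20-KO values lay outside the range of the 3 WT values at 135 first introns (8.23%), against 11.1% of all introns. They were higher at 42 (2.56%, against 5.92% of all introns) and lower at 93 (5.67%, against 5.14%), so the lower share was near the background and the higher share below it. The CFAP20-KO mean was above the WT mean at 642 first introns (39.1%, against 48.6% of all introns), below it at 900 and equal at 99, and the median difference was -0.00510. In MANE Select transcripts 349 first introns were higher and 370 lower, and outside them 293 were higher and 530 lower. Of later introns, 2303 were higher and 1938 lower in MANE Select transcripts, and 229 and 346 outside them. The lean to lower values thus lay outside MANE Select transcripts and was not particular to first introns.

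The direction of the overall shift was not the same across the libraries. Numbers in the column names, taken here as run numbers, place WT and CFAP20-KO replicate 1 in one run, WT replicate 3 with CFAP20-KO replicates 2 and 3 in another, and WT replicate 2 with the rescue in a run of their own. The first-intron median of CFAP20-KO minus that of WT was -0.0407 in the first of these runs and 0.0656 in the second, and -0.0203 over all 6 libraries. Without WT replicate 2, which had the highest median of the 6 and no CFAP20-KO library in its run, it was 0.0415, and without CFAP20-KO replicate 1, which had the lowest, it was 0.0379. In MANE Select transcripts it was 0.00710. The library medians of the 2 groups overlapped over all 6 libraries, in both of these omissions and in MANE Select transcripts. CFAP20-KO replicates 2 and 3 were the most alike of all pairs, with r = 0.967 across first introns, against 0.784 to 0.927 for the other pairs.

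**Figure D4:**
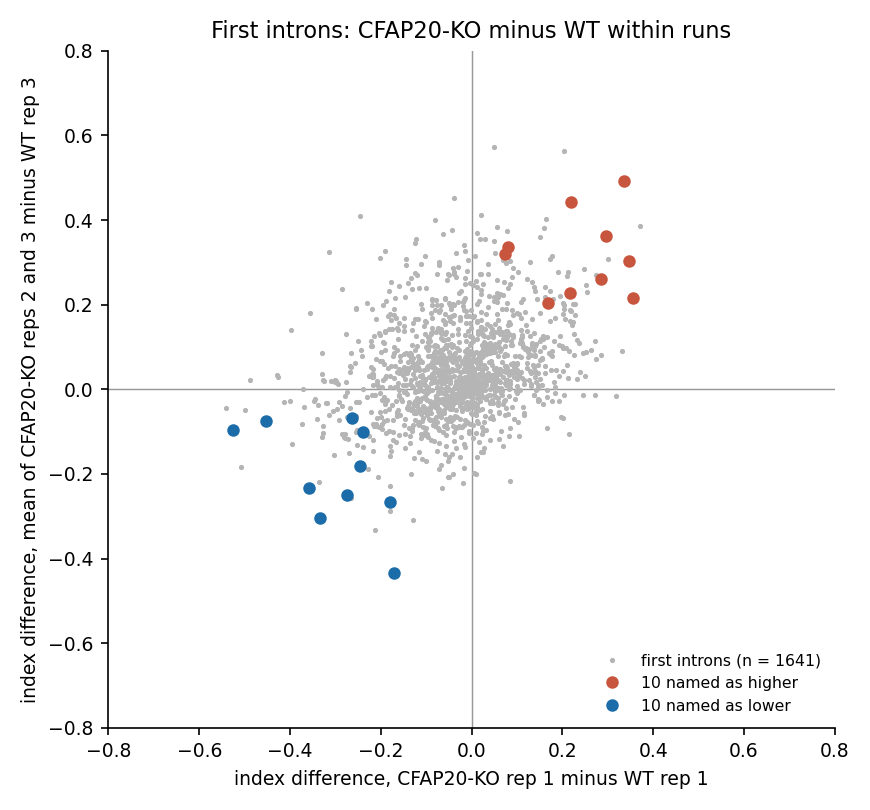
Each point is a first intron: the difference in index between CFAP20-KO and WT in the run of replicate 1 (horizontal axis) and in the run of WT replicate 3 (vertical axis). Most points lie near the centre with more above the horizontal line than below it, and the 10 introns named as higher (red) and the 10 named as lower (blue) have the same sign in both runs because they were chosen so.

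By length, first introns whose CFAP20-KO values were all above WT numbered 29 of 845 under 1 kb (7.19% of all introns of that length), 9 of 602 at 1 to 5 kb (4.14%), 2 of 166 at 5 to 20 kb (3.5%) and 2 of 28 from 20 kb (7.14%). Those all below WT numbered 35 (background 3.32%), 40 (6.87%), 14 (10%) and 4 (25%). As shares of first introns the lower ones were 4.14%, 6.64%, 8.43% and 14.3%, which follow the rise seen in all introns and exceed the background only in the shortest class. The higher ones were 3.43%, 1.5%, 1.2% and 7.14%, below or at the background in each class. The median of the single differences was -0.00140, -0.00680, -0.0256 and -0.0279 from the shortest to the longest class. Later introns showed the same order, with 0.0119, -0.0093, -0.0287 and -0.0886. First introns of MANE Select transcripts had 0.0114, -0.0067, -0.0212 and -0.0058, with no steady fall.

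The introns named next were chosen for the size of their difference among those with no overlap and with one sign in both runs, so their values are a description. None passed the limma test across all introns, where their adjusted p ran from 0.833 to 0.878. The largest difference upward was at RRP9, a component of the U3 particle that processes ribosomal RNA: 0.478, 0.553 and 0.430 in WT and 0.698, 0.902 and 0.845 in CFAP20-KO. CHD4, the remodelling ATPase of the NuRD complex, had 0.137, 0.468 and 0.0845 in WT and 0.472, 0.627 and 0.525 in CFAP20-KO. In CHD4 the highest WT value and the lowest CFAP20-KO value nearly touch, while in RRP9 they are clearly apart.

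NUDC, which acts in dynein-dependent nuclear movement, had 0.358, 0.601 and 0.487 in WT and 0.705, 0.812 and 0.767 in CFAP20-KO. CCDC80, a secreted matrix protein, had 0.140, 0.351 and 0.131 in WT and 0.436, 0.565 and 0.421 in CFAP20-KO. The other 6 were TXLNA, C1orf74, SCNM1, ACTN1, SAP30BP and CDC37, with mean differences from 0.199 for CDC37, a co-chaperone of HSP90, to 0.252 for TXLNA. SCNM1 is itself a component of the minor spliceosome, and its WT values of 0.226, 0.381 and 0.239 lay below 0.510, 0.459 and 0.539 in CFAP20-KO. ACTN1, the cross-linker of actin filaments, went from a WT mean of 0.142 ± 0.0550 to 0.345 ± 0.0394 (SD, n = 3 each).

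The largest difference downward was at ILKAP, a phosphatase that binds integrin-linked kinase: 0.596, 0.695 and 0.741 in WT and 0.424, 0.279 and 0.333 in CFAP20-KO. NPC1, the cholesterol transporter of lysosomes, had 0.477, 0.318 and 0.436 in WT and 0.143, 0.137 and 0.128 in CFAP20-KO. The NPC1 values in CFAP20-KO are among the most even of the named introns. BACH1, a haem-regulated repressor, had 0.838, 0.823 and 0.722 in WT and 0.659, 0.469 and 0.440 in CFAP20-KO.

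UGCG, which makes glucosylceramide, had 0.577, 0.638 and 0.715 in WT and 0.219, 0.493 and 0.469 in CFAP20-KO. SLC6A6, the taurine transporter, had 0.479, 0.500 and 0.537 in WT and 0.204, 0.25 and 0.324 in CFAP20-KO. ZMIZ1, a coactivator with a first intron of 49644 bp, had 0.784, 0.931 and 0.820 in WT and 0.537, 0.619 and 0.661 in CFAP20-KO. In RSL1D1, CPA4, GTSE1 and C22orf39 the difference was mostly in the run of replicate 1, for example -0.452 in that run and -0.0752 in the other for RSL1D1.

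**Figure D5:**
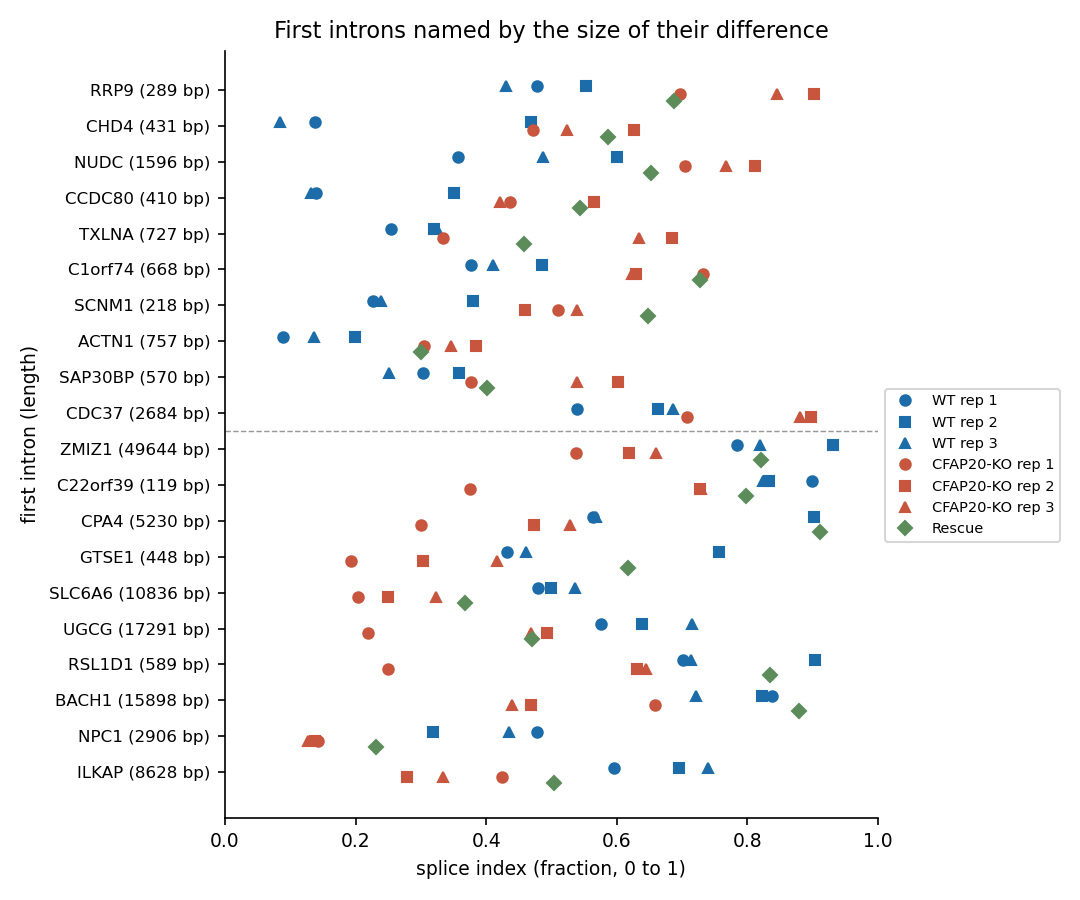
Splice index (horizontal axis, fraction) of the 10 first introns with the largest difference upward (above the dashed line) and the 10 downward, with their lengths in bp; WT blue, CFAP20-KO red, rescue green, and the shape gives the replicate. Blue and red points do not overlap in any of them, as the choice required, and the green rescue point is missing for CDC37.

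A pair of corrections applied together did give calls. When each library was centred on its median over all introns and the fit was also blocked by replicate number, limma called 4 first introns at an adjusted p of 0.05: RRP9 (0.32 higher, SE 0.0749, adjusted p = 0.0367) and TPM2 (0.283 higher, adjusted p = 0.0371), ILKAP (change -0.340, adjusted p = 0.0388) and NPC1 (change -0.283, adjusted p = 0.048). Among all introns the same fit called 0.26% in each direction, against 0.122% of first introns in each. Its block pairs WT and CFAP20-KO replicate 2, which lie in different runs. With the run in place of the block, the centred fit called 7 first introns higher (0.427%, against 0.551% of all introns) and 2 lower (0.122%, against 0.367%). The 7 were those of NUDC, CCDC80, RRP9, CHD4 and HDLBP and both listed first introns of TPM2, and the 2 were NPC1 and UGCG. In that fit WT replicate 2 has no weight, because its run holds no CFAP20-KO library.

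Both TPM2 introns belong to one tropomyosin gene on chr9, and were not among the introns without overlap. The first intron of its MANE Select transcript had 0.398, 0.798 and 0.529 in WT and 0.768, 0.937 and 0.895 in CFAP20-KO, so only WT replicate 2 lay above the lowest CFAP20-KO value. The other had 0.377, 0.703 and 0.603 in WT and 0.679, 0.927 and 0.896 in CFAP20-KO. HDLBP, an RNA-binding protein of the cytoplasm, had 0.204, 0.492 and 0.117 in WT and 0.409, 0.722 and 0.638 in CFAP20-KO, with the same overlap from WT replicate 2.

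Whether CFAP20-KO altered the first intron apart from the rest of its gene was tested as the difference of the 2 within-gene differences. Limma called 0 of 832 first introns, and 0 of all 5003 introns (0%), with a smallest adjusted p of 0.568 among first introns. The unadjusted p was under 0.05 at 54 first introns (6.49%), against 6.94% of all introns. For CHD4 the first intron differed from the other introns by -0.617 in WT and by -0.366 in CFAP20-KO, and for ACTN1 by -0.637 in WT, with a value 0.175 higher in CFAP20-KO, and neither passed this test.

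Gene lists were read in the same fit, and 0 members of any list passed. The median difference of all first introns, -0.00510, and of all introns, 0, are the values to set beside those of the lists. Of 34 first introns of spliceosome and splicing-factor genes, 23 were higher in CFAP20-KO on the mean and 10 lower, with a median difference of 0.0443. SON, a nuclear-speckle protein, had 0.232, 0.275 and 0.330 in WT and 0.316, 0.680 and 0.586 in CFAP20-KO, so its groups overlapped through CFAP20-KO replicate 1. HNRNPK, an RNA-binding regulator of splicing, had 0.667, 0.854 and 0.752 in WT and 0.320, 0.717 and 0.731 in CFAP20-KO.

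Of 15 first introns of heat-shock and stress-response genes, 10 were higher and 4 lower, with a median difference of 0.103. HSP90AA1, the inducible HSP90, had 0.398, 0.812 and 0.597 in WT and 0.576, 0.911 and 0.914 in CFAP20-KO, and ATF4, the transcription factor of the integrated stress response, had 0.377, 0.686 and 0.374 against 0.629, 0.625 and 0.619. In both the groups overlapped. Of 25 for the actin cytoskeleton and focal adhesion, 15 were higher and 10 lower (median 0.0251), and of 13 for matrix and integrins 7 and 5 (median 0.0158). FN1, fibronectin, had 0.344, 0.332 and 0.225 in WT and 0.28, 0.65 and 0.535 in CFAP20-KO, with opposite signs in the 2 runs.

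Of 19 first introns of immediate early and growth-factor response genes, 7 were higher and 11 lower (median -0.0528). ZFP36, which destabilises short-lived mRNAs, had 0.503, 0.916 and 0.566 in WT and 0.492, 0.484 and 0.496 in CFAP20-KO, with no overlap and a difference of -0.0105 in the run of replicate 1. Of 16 for RNA polymerase II, elongation and Mediator, 7 were higher and 9 lower (median -0.0233). Among these, CCNT2, the cyclin T2 partner of CDK9 and the gene with the minor-spliceosome donor, had 0.212, 0.422 and 0.256 in WT and 0.0755, 0.220 and 0.0714 in CFAP20-KO. Its groups overlapped only by CFAP20-KO replicate 2, which lay just above WT replicate 1.

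The 18 first introns of cytoplasmic ribosomal proteins were split 8 to 10 (median -0.00430), and the 10 of replication and R-loop factors 6 to 4 (median 0.00850). RPS10 had 0.494, 0.951 and 0.663 in WT and 0.403, 0.684 and 0.758 in CFAP20-KO, with wide overlap. Only 2 first introns came from cilium and Hedgehog genes, IFT88 and B9D2, and both had WT replicate 2 above every other WT and CFAP20-KO library, at 0.371 and 0.442. The within-gene test in WT is set beside its share over all tested first introns, 46.8% lower and 11.2% higher. The actin list had 17 of 23 first introns lower and 1 higher, the stress list 11 of 12 and 0, and the matrix list 8 of 12 and 0. The immediate early list had 8 of 12 lower and 1 higher, the splicing factors 15 of 33 and 6, the polymerase and Mediator list 5 of 13 and 3, the replication list 3 of 6 and 0, and the ribosomal proteins 3 of 11 and 4.

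The rescue library has no replicate and shares its run with WT replicate 2, so both are given side by side. Over 1625 first introns with a value in the rescue, its median was 0.467 and that of WT replicate 2 was 0.469. The rescue was higher at 722 first introns (44.4%), lower at 785 and equal at 118, with a median difference of 0, whereas it was higher at 62.4% of later introns. At the 10 introns named as lower, the rescue value lay within or above the WT values in 5 (BACH1, RSL1D1, GTSE1, CPA4 and ZMIZ1), between the groups in 4 (ILKAP, NPC1, SLC6A6 and C22orf39) and within the CFAP20-KO values in 1 (UGCG). At the 9 named as higher that have a rescue value, it lay within the WT values in 0, between the groups in 3 (RRP9, NUDC and ACTN1), within the CFAP20-KO values in 5 (CHD4, CCDC80, TXLNA, C1orf74 and SAP30BP) and above them in 1 (SCNM1). For example, it was 0.879 at BACH1 and 0.231 at NPC1, and 0.688 at RRP9 and 0.648 at SCNM1. The rescue minus WT replicate 2 ran from -0.191 (ILKAP) to 0.0557 (BACH1) at the introns named as lower. At those named as higher it ran from 0.0433 (SAP30BP) to 0.2675 (SCNM1). Of the libraries compared, only WT replicate 2 shares the run of the rescue, so these positions cannot be told apart from a difference between runs. With 1 library these are single values and no test was made.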

How the data were processed

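Splice indices of BrU-labelled nascent RNA were analysed in 7 libraries (3 WT, 3 CFAP20-KO, 1 rescue). The authors deposited 1 index for each intron and library, a fraction between 0 and 1 whose formula the sources used here do not give, together with deposited difference columns (score) that equalled the differences of the index columns to within 3.8e-08 and were not used further. The submitters' processing notes name hg38, the aligner STAR 2.7.7a and SAMtools 1.11, read checks and trimming with Trim Galore 0.6.5 and FastQC 0.11.9, and R 4.0.5 beside HOMER 4.8.2. Read totals per library and depth per intron are not in this table, so precision rests on the replicates. Empty rows (18446) were dropped.

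Intron starts were taken as 1 base after the listed start, which matched exon ends of GENCODE 44. Positions, transcript ranks, MANE Select membership, strand overlaps and splice-site letters came from GENCODE 44 and hg38. The donor score is a sum of log2 odds over 3 exon and 6 intron bases, with weights taken from the listed introns themselves.

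The index was tested over all 6537 introns in R 4.3.3 with limma 3.58.1 and statmod 1.5.0 (empirical Bayes, robust and with a trend), CFAP20-KO against WT, without a block, with Benjamini-Hochberg adjustment at 0.05. The same fit was made on each intron minus the mean of the other listed introns of its gene. The procedure was tested on simulated data. Medians per library were compared by their spread, with no test. Members, lists and comparisons were chosen with earlier results of these data known.

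Named first introns were those past the threshold, the 10 with the largest difference each way among those without overlap and with one sign in both runs, the 5 highest, lowest, longest and shortest, the 5 largest within-gene differences each way, and up to 3 per gene list. One intron that this rule names is not reported here. Introns called only in corrected fits, VPS72, PRDX1 and the members at 0 in MANE Select transcripts were chosen after their values were seen.

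Replicate numbers are shared by both groups. Deviations from the group mean of same-numbered libraries correlated at 0.508, 0.207 and 0.214 over all introns, each above the limit of 0.1. Pairing by replicate number was therefore tried as a block in alternative fits, while the main fit had no block. The labels do not say what the numbers mark, and by the column numbers WT and CFAP20-KO replicate 2 lie in different runs. WT replicate 2 correlated slightly more with CFAP20-KO replicate 3 (0.219) and WT replicate 3 with CFAP20-KO replicate 2 (0.250). Alternatives were the block, the run, centring, an arcsine transformation, introns strictly between 0 and 1, averaging CFAP20-KO replicates 2 and 3, other summaries and length groups, MANE Select transcripts alone, and leaving out each library.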

Additional observations from a re-analysis of the deposited data

How the results depend on the processing

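The comparison of CFAP20-KO with WT gave 0 first introns under the arcsine transformation, introns strictly between 0 and 1, centring, averaging CFAP20-KO replicates 2 and 3, MANE Select transcripts alone (an alternative chosen after seeing the data), the run, the replicate block (0 calls, smallest adjusted p 0.41), and each omission of a library (0 to 0, smallest adjusted p 0.384 to 1). It gave 4 with the block and centring together and 9 with the run and centring together. The cause was not tested. The test of the difference within genes gave 0 under every alternative run, including the replicate block (0 calls, smallest adjusted p 0.448) and the omission of each library. The pairing changed no other call.

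First introns lower than the others of their gene numbered 357 to 400 under the other alternatives, 260 to 412 when 1 library was left out and 104 in MANE Select transcripts alone, where 360 rather than 832 were tested. Those higher numbered 60 to 108 with 1 library left out, 60 of them without WT replicate 1, and 47 in MANE Select transcripts alone. The gap between later and first introns in WT was 0.268 by means over introns, 0.214 in MANE Select transcripts and 0.340 to 0.406 with 1 library left out. The gap between the longest and shortest first introns in WT was 0.259 for introns strictly between 0 and 1, 0.187 between the outer quartiles of length, 0.223 in genes with other listed introns, 0.152 in MANE Select transcripts and 0.239 for at least 5 kb against under 1 kb, the last 2 being chosen after seeing the data, and 0.329 to 0.349 with 1 library left out. Its difference between CFAP20-KO and WT was -0.0425 for introns strictly between 0 and 1, -0.0295 in MANE Select transcripts and -0.0234 to 0.0023 with 1 library left out. The shift of the first-intron median was -0.0683 to 0.0415 with 1 library left out.

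What depth limits could not be computed, since the reads behind each index are unknown, and 1 of the 3 runs holds no CFAP20-KO library.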

Other observations

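A further 73 first introns were listed without values in all 6 libraries and entered no comparison. All had values in WT replicates 1 and 3 and CFAP20-KO replicates 1 and 3, but only 39 had one in WT replicate 2 and 27 in CFAP20-KO replicate 2. Of these introns 28.8% (21) belonged to a MANE Select transcript, against 44.1% of the complete ones, and their medians were 0.0625 and 0.121 in WT replicates 1 and 3 and 0.0513 and 0.143 in CFAP20-KO replicates 1 and 3.

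GC content ordered first and later introns differently between libraries. Spearman's rho of index with GC percent across first introns was -0.107, 0.0161 and -0.0806 in WT and -0.069, -0.0463 and -0.0614 in CFAP20-KO. Across later introns it was -0.227, 0.0881 and -0.0927 in WT and -0.180, -0.0583 and -0.0706 in CFAP20-KO. WT replicate 2 is the 1 library of the 6 with a positive value in both. The share of pyrimidines before the acceptor went with a higher index in first introns, with rho of 0.172, 0.174 and 0.165 in WT and 0.166, 0.145 and 0.145 in CFAP20-KO. Within MANE Select transcripts it was 0.0616, 0.0654 and 0.058 in WT and 0.0638, 0.03 and 0.0321 in CFAP20-KO for first introns. In later introns of any transcript it ran from -0.0264 to 0.0286. These are correlations across introns that share a library.

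GC-AG first introns had WT medians of 0.0307, 0.0560 and 0.0362 over 44 introns, and GC-AG later introns, of which 25 of 38 belong to MANE Select transcripts, had 0.524, 0.698 and 0.665. The VPS72 first intron, the 1 GC-AG first intron in a MANE Select transcript, had 0.867, 0.839 and 0.878 in WT and 0.763, 0.918 and 0.883 in CFAP20-KO.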
